A study of Mus musculus with 8 samples.

Results

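Intraflagellar transport complex B, or IFT-B, is the protein train that carries building material from the base to the tip of a cilium. The 10 genes described here were the IFT-B subunits that the count tables list under Ift symbols, namely Ift20, Ift27, Ift46, Ift52, Ift57, Ift74, Ift80, Ift81, Ift88 and Ift172. They were taken by symbol from 23432 listed genes, with earlier results of these data known, and all 10 were listed. Poly(A) RNA sequencing was available for 8 libraries, 2 in each of 4 groups of mouse skin, on a mixed C57Bl/6J and CD-1 background. At E16.5, in late embryos, epithelial cells of back skin carrying the K14-H2BGFP reporter were sorted by flow cytometry from controls and from MOFfl/fl/K14Cre embryos (MOF cKO). At P0.5, just after birth, whole epidermis was taken from controls and from Kansl1fl/fl/K14Cre pups (Kansl1 cKO), in which exon 3 of Kansl1 is removed. MOF, encoded by Kat8, is the acetyltransferase of histone H4 lysine 16, and Kansl1 is a scaffold subunit of the NSL complex, one of the complexes that contain MOF. In both lines the Cre recombinase is driven by the Krt14 promoter, so deletion is limited to keratin 14 lineage cells, and controls were wildtype or heterozygous littermates. The labels do not say whether the 2 libraries of a group came from separate animals, so p-values measure the spread between these libraries.

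IFT trains move along the microtubules of the cilium in both directions. Kinesin-2 motors draw them to the tip, dynein-2 returns them with the help of IFT-A, and the BBSome, a coat-like complex, rides on them as an adaptor for membrane proteins. IFT-B is built of a core, IFT-B1, and a peripheral part, IFT-B2. Cells that lack certain core subunits, Ift88 among them, generally fail to build a cilium. In skin, the primary cilia of keratinocytes are known for their part in epidermal differentiation and in the Hedgehog signalling of the hair germ. Regulatory factor X (RFX) proteins bind the X-box motif in the promoters of many ciliary genes.

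X-box half-sites were searched for in RefSeq promoters (mouse GRCm38.p6, the same coordinates as mm10), each spanning 250 bases before to 50 bases after a start, as GTTGCC or GTTACC on either strand. Promoters were found for 8 of the 10 members, and Ift80 and Ift81 had no entry in the table used here. A half-site lay in 4 of these 8 promoters (50%), those of Ift27, Ift57, Ift88 and Ift172. Over all 27025 promoters of the table, 5624 (20.8%) held one. Ift57 had 3 half-sites, and a pair of them faced each other across 1 base, an arrangement present in 129 promoters (0.477%). The sequences of the 4 members are shown, and their log2 fold changes in MOF cKO, given below, ran from -0.998 for Ift172 to -3.58 for Ift57. Ift74, with no half-site in its promoter, had -2.09. Of the further IFT-B subunits described below, 3 of 7 promoters held a half-site (42.9%). A relation between half-sites and the size of a fall was not tested. Capitals mark the half-sites.
Ift57, plus strand, chr16:49699226-49699255: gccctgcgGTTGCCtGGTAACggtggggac
Ift27, minus strand, chr15:78174073-78174102: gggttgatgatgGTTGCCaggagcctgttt
Ift172, minus strand, chr5:31291097-31291126: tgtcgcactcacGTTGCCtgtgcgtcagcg
Ift88, plus strand, chr14:57424080-57424109: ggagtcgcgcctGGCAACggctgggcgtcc
The half-sites began at base -60 in the Ift57 pair, at base -9 in Ift27, at base 0, the start itself, in Ift172, and at base 21 in Ift88, counted from the RefSeq start as base 0. The remaining Ift57 half-site began at base -87. Counted from the GENCODE M21 starts, the Ift57 pair began at base 1, and the half-sites of Ift27, Ift172 and Ift88 at bases 17, 2 and 30, so all of these lay in the sequence transcribed from those starts, and only the remaining Ift57 half-site, at base -26, lay before one. A match of letters is a description and not a binding site, and a missing match does not mean that RFX proteins do not bind. The study reported both RFX2 and MOF at the Ift74 promoter in newborn epidermal cells, although no half-site was found in the Ift74 sequence searched here. With only the 250 bases before the RefSeq start, 2 of the 8 promoters held a half-site, against 17.6% of all promoters.

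One member shares its promoter with a neighbour at very close range. The start of Ift20 (chr11:78536361-78541737, plus strand) lies 29 bases from that of Tnfaip1 on the opposite strand, with 28 bases between them, in capitals here because the results of both genes are compared below.
Ift20 to Tnfaip1, plus strand, chr11:78536332-78536361: tACTTCCCGTGTCGTAGTCCCCGCCCCCTg
The lower-case letter at either end is the first transcribed base of a gene. No half-site was present in the Ift20 promoter.

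Each library held 9108709 to 27561688 counts on genes, with the E16.5 libraries the deeper. Libraries were scaled by the trimmed mean of M-values (TMM) and levels are given as CPM, a gene's count as a share of the scaled library. Kat8 itself had 14.4 and 14.7 CPM in the E16.5 controls and 12.4 and 13.9 CPM in MOF cKO, and its log2 fold change was -0.14 (SE 0.179, adjusted p = 0.554 by edgeR's quasi-likelihood test). These gene-wide counts do not check the labels, because the deleted part cannot be told apart in them. Kansl1 had 40.7 and 48.2 CPM in the P0.5 controls and 31.4 and 30.6 CPM in Kansl1 cKO, and its log2 fold change of -0.52 did not pass (adjusted p = 0.242 by the same test). Basal keratinocyte markers were present in all 8 libraries, at 14966 to 36835 CPM summed over 6 genes.

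In E16.5 MOF cKO cells, 9 of the 10 members fell and none rose by edgeR's quasi-likelihood test, with a limit of 0.01 on the p-value adjusted over 13956 genes (Benjamini-Hochberg) and a fold change that had to exceed 1.5. Among all genes tested, 9.59% were called lower. Members fell between 1.85-fold for Ift52 and 11.9-fold for Ift57, and the median log2 fold change of the 10 was -1.33, against -0.02 for all genes. The 9 were also called by DESeq2, which called 11.7% of genes lower. Summed over the members, the controls stood at 272.0 and 279.9 CPM and MOF cKO at 128.1 and 137.8 CPM. In each of the 9, both MOF cKO libraries lay below both controls, a pattern found in 37.7% of all genes tested.

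**Figure D1:**
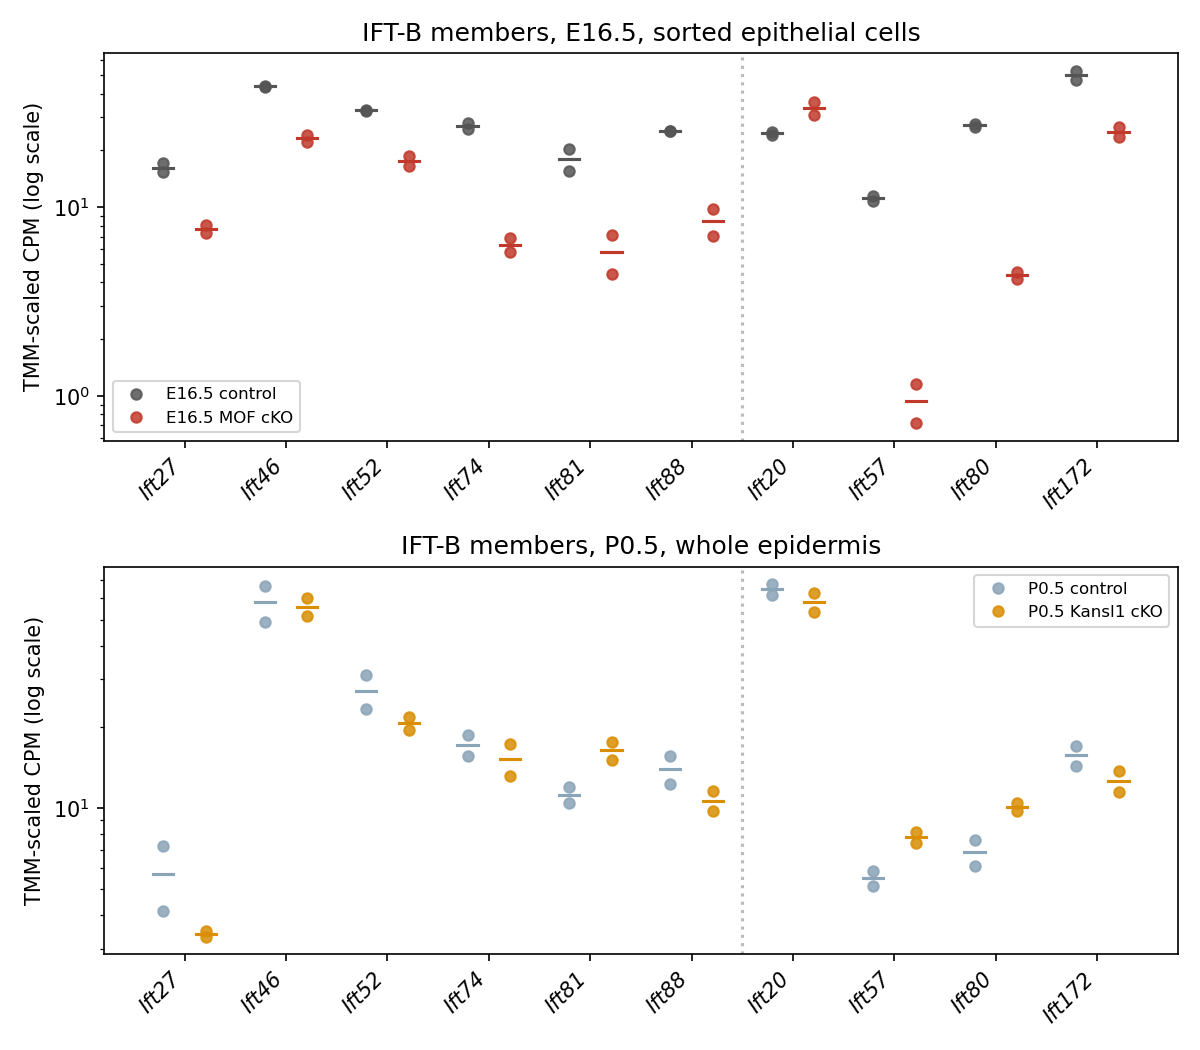
TMM-scaled CPM of the 10 IFT-B members on log axes, with 1 point for each library and a bar at the mean of 2 (IFT-B1 left of the dotted line, IFT-B2 right). In the upper panel (E16.5) the MOF cKO points lie below the control points for 9 members and above them for Ift20. In the lower panel (P0.5) the groups lie close together and overlap for 3 members.

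The IFT-B1 core contributed 6 members, and all 6 fell. Ift74 and Ift81 form the coiled-coil dimer that binds tubulin cargo. Ift74 was read 861 and 720 times in controls and 115 and 162 times in MOF cKO, or 28.1 and 26.0 CPM against 5.77 and 6.86 CPM. Its MOF cKO libraries were both far below the controls. The log2 fold change was -2.09 (SE 0.184, adjusted p = 0.000513 by edgeR's quasi-likelihood test). Ift81 had 15.6 and 20.4 CPM in controls and 4.42 and 7.11 CPM in MOF cKO. The libraries of each group differed more from each other for Ift81 than for its partner, without overlap between groups, and the log2 fold change was -1.63 (SE 0.282, adjusted p = 0.00427 by the same test).

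Ift88, the core subunit long used to remove cilia from mouse tissues, had 25.2 CPM in both controls and 9.78 and 7.07 CPM in MOF cKO. The controls were almost identical, and the log2 fold change was -1.58 (SE 0.205, adjusted p = 0.00145 by edgeR's quasi-likelihood test). Ift52, which joins core subunits to one another, had 32.9 and 32.3 CPM in controls and 18.6 and 16.6 CPM in MOF cKO. Ift46, the subunit linked to the import of outer dynein arms in motile cilia, had 44.2 and 43.3 CPM in controls and 22.1 and 24.3 CPM in MOF cKO. Both therefore kept more than 50% of the control level in MOF cKO, with log2 fold changes of -0.89 (adjusted p = 0.00361) for Ift52 and -0.92 (adjusted p = 0.00219) for Ift46. Ift27, a Rab-like GTPase tied to BBSome export, had 15.3 and 17.1 CPM in controls and 7.33 and 8.09 CPM in MOF cKO. The log2 fold change of Ift27 was -1.07 (SE 0.198, adjusted p = 0.00571 by the same test). This call was lost without control replicate 2 (adjusted p = 0.0211), without MOF cKO replicate 1 (adjusted p = 0.013), and in 1 edgeR fit over all 8 libraries (adjusted p = 0.0151).

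Among the 10 members, those of IFT-B2 held the widest fall, another wide fall and the exception. Ift57, which contacts kinesin-2, was read 353 and 299 times in controls and 23 and 17 times in MOF cKO, or 11.5 and 10.8 CPM against 1.15 and 0.72 CPM. The MOF cKO counts were the lowest of any member in any library. The log2 fold change was -3.58 (SE 0.354, adjusted p = 0.000677 by edgeR's quasi-likelihood test). Ift80, a WD-repeat subunit, was read 852 and 740 times in controls and 91 and 99 times in MOF cKO, or 27.8 and 26.7 CPM against 4.57 and 4.19 CPM. The log2 fold change of Ift80 was -2.64 (SE 0.183, adjusted p = 0.000264 by the same test). Ift172, the largest IFT-B subunit, had 47.2 and 53.0 CPM in controls and 23.4 and 26.7 CPM in MOF cKO. It was the member with the most CPM in the controls, and its log2 fold change was -0.998 (SE 0.14, adjusted p = 0.00192 by the same test).

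Ift20, which is also found at the Golgi, had 24.2 and 25.2 CPM in controls and 30.9 and 36.2 CPM in MOF cKO. Both MOF cKO libraries lay above both controls, as for 34.9% of all genes tested. The log2 fold change of 0.44 (SE 0.146) was not called (adjusted p = 0.0465 by edgeR's quasi-likelihood test). Its neighbour Tnfaip1, a Cullin-3 adaptor gene, had 115.1 and 103.9 CPM in controls and 153.6 and 152.1 CPM in MOF cKO. Tnfaip1 had a log2 fold change of 0.48 (SE 0.106, adjusted p = 0.0111 by the same test) and was not called either, at a size close to that of Ift20.

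Another pair of members have a head-to-head protein-coding neighbour in GENCODE M21. Ift46 starts 63 bases from Arcn1, a subunit gene of the COPI coat, although the RefSeq start of Ift46 used for the promoter lies further downstream. Arcn1 had a log2 fold change of 0.16 (adjusted p = 0.301 by edgeR's quasi-likelihood test), which turned to -0.15 when libraries were scaled by size alone. Ift80 starts 168 bases from Smc4, a condensin subunit gene, with a log2 fold change of -0.28 (adjusted p = 0.119 by the same test). The members Ift46 and Ift80 were thus called lower while these neighbours were not. The difference within each pair was not tested. Opposite-strand transcripts share exons with Ift57 (Gm15518) and Ift88 (Ift88os). Neither is listed in the count tables, and the strand setting of the counting is not given in the sources used here, so reads of the 2 strands cannot be told apart at these genes.

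**Figure D2:**
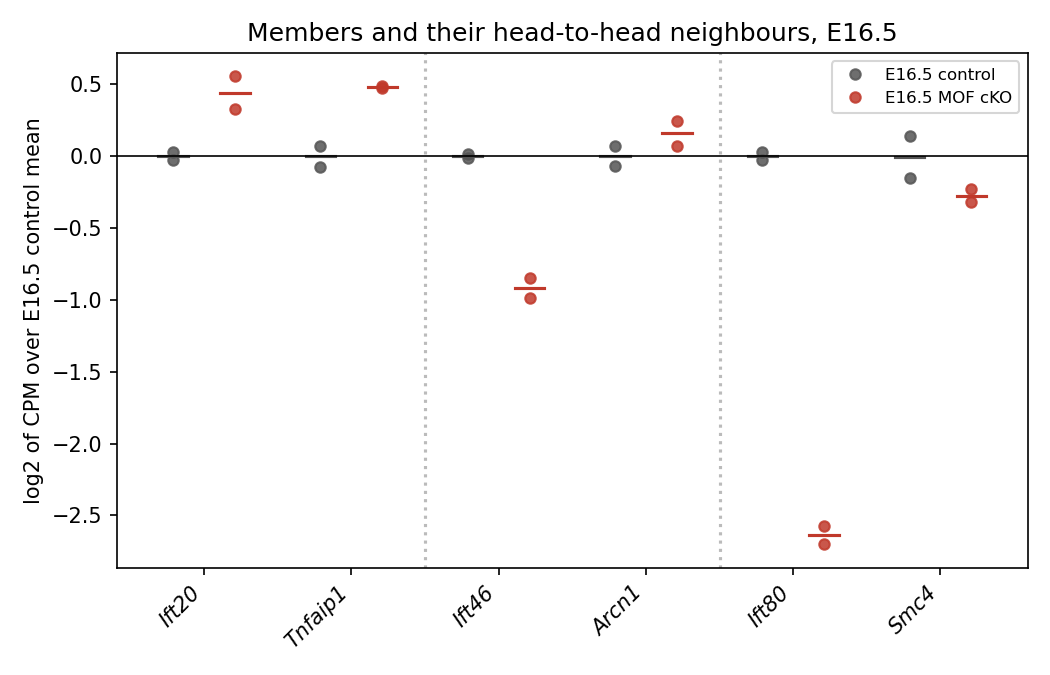
Log2 of the CPM in each E16.5 library over the mean of the 2 controls, for 3 members and the gene whose start faces theirs, with 1 point for each library and a bar at the mean. The Ift46 and Ift80 points of MOF cKO sit well below those of Arcn1 and Smc4, whereas Ift20 and Tnfaip1 both sit above 0.

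Of 8 further IFT-B subunit genes listed under other symbols, 7 passed the filter on low counts and 5 were called lower in MOF cKO, and the median over the 7 was -1.24 on the log2 scale. Ttc26, which encodes IFT56, had 262 and 230 counts in controls and 8 and 13 counts in MOF cKO. Its libraries were separated further than those of any member, with a log2 fold change of -4.12 (SE 0.395, adjusted p = 0.000632 by edgeR's quasi-likelihood test). Rabl5, the gene of the GTPase IFT22, had a log2 fold change of -2.30 (SE 0.331, adjusted p = 0.00214 by the same test). Traf3ip1 (IFT54) and Cluap1 (IFT38) were called at log2 fold changes of -1.24 and -0.78, each with an adjusted p just under 0.01 by this test (0.00969 and 0.00962), and both calls were lost in several of the alternatives. Hspb11 (IFT25), the partner of Ift27, had a log2 fold change of -0.84 and was not called (adjusted p = 0.0686 by the same test). Ttc30a1, Ttc30a2 and Ttc30b are near-identical copies that encode IFT70, so their shares of the reads are uncertain. Ttc30b, called lower, had 64 and 59 counts in controls and 2 and 1 counts in MOF cKO, and its call was lost without either control or without MOF cKO replicate 2. Ttc30a1 had 151 and 111 counts against 38 and 76 counts and was not called (adjusted p = 0.17 by the same test), and Ttc30a2, at 0 to 7 counts, was not tested.

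The partner machines of IFT-B are given by counts alone. Of the IFT-A genes, 5 of 7 tested were called lower, with a median log2 fold change of -1.33. Of the BBSome genes, 5 of 8 were called lower (6 by DESeq2), with a median of -1.95. Of the kinesin-2 genes, 4 of 5 were called lower, with a median of -1.68. Of the dynein-2 genes, several of which also serve cytoplasmic dynein, 2 of 11 tested were called lower (4 by DESeq2), with a median of -0.59. No gene of these 4 lists was called higher, and 9.59% of all genes tested were called lower. Log2 fold changes above 0 were found for 1 kinesin-2 gene (1.33), 2 dynein-2 genes and 1 BBSome gene.

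Markers of other cells moved with the MOF cKO group, in which 1395 of all 13956 genes tested were called higher. All 7 listed macrophage markers had log2 fold changes above 0 in MOF cKO. Of these, 5 were called higher by edgeR's quasi-likelihood test, which gives the calls in this paragraph. They summed to 18.8 and 44.0 CPM in controls and 82.2 and 120.3 CPM in MOF cKO, over all 7. Most of the control sum was Cd68, which overlapped between the groups, at 18.1 and 41.7 CPM in controls and 22.9 and 51.9 CPM in MOF cKO. Suprabasal keratinocyte markers, 5 of 6 listed, summed to 3960 and 3186 CPM in controls and 8605 and 9528 CPM in MOF cKO, with 3 called higher. Hair germ markers summed to 459.5 and 647.8 CPM in controls and 254.7 and 259.2 CPM in MOF cKO, with 3 of 5 called lower. Sox9 of this list went the other way, at 47.1 and 61.6 CPM in controls and 50.3 and 71.3 CPM in MOF cKO, and was not called. Fibroblast markers summed to 917 and 1552 CPM in controls and 1541 and 2150 CPM in MOF cKO. Of these 7 markers, 6 had log2 fold changes above 0. Dcn went the other way, at 494.9 and 509.4 CPM in controls and 411.2 and 403.6 CPM in MOF cKO. In this list 0 of 7 were called, but 7 had an unadjusted p under 0.05 and 2 were called higher by DESeq2. Of the endothelial markers 1 of 4 was called higher, and of the cycling cell markers 1 of 5 was called lower. All 5 melanocyte markers had log2 fold changes above 0, and 0 of them were called. Of the multiciliated cell markers, 2 of 5 were listed. They summed to 1.86 and 1.26 CPM in controls and 0 and 0.169 CPM in MOF cKO, where Ccdc39, a gene of motile cilia, had 0 counts in both libraries against 51 and 26 in controls and was called lower. The part of these cells in the fall of the members was not tested, and fewer cells of a type and less RNA per cell cannot be told apart in bulk samples.

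In P0.5 Kansl1 cKO epidermis no member was called in either direction by edgeR's quasi-likelihood test, and none by DESeq2. The background was 0% by edgeR, with 0 of 13031 genes called and 2045 (15.7%) at an unadjusted p under 0.05, among them 1 member, Ift81. DESeq2 called 55 genes lower (0.443%) and 35 higher (0.282%). The members had a median log2 fold change of -0.16, against 0.01 for all genes. Summed over the members, the controls stood at 204.5 and 247.7 CPM and Kansl1 cKO at 217.5 and 204.1 CPM, so the groups overlapped. The control libraries held 9108709 and 14327981 counts on genes.

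Of the 10 members, 4 lay lower in both Kansl1 cKO libraries than in both controls, against 22.7% of all genes tested, 3 lay higher, against 26% of all genes, and 3 overlapped. Ift27 had 4.12 and 7.24 CPM in controls and 3.49 and 3.32 CPM in Kansl1 cKO. Its log2 fold change of -0.76 (SE 0.366, adjusted p = 0.369 by edgeR's quasi-likelihood test) had the largest size of any member here, beside control libraries that themselves lay far apart. The other 3 that lay lower were Ift52, Ift88 and Ift172, with log2 fold changes of -0.41, -0.39 and -0.32. Ift81 had 11.9 and 10.5 CPM in controls and 17.6 and 15.1 CPM in Kansl1 cKO, and its log2 fold change was 0.55 (SE 0.207, adjusted p = 0.281 by the same test). Ift57 and Ift80 lay on the same side, with log2 fold changes of 0.52 (adjusted p = 0.391) and 0.55 (adjusted p = 0.343). The members that overlapped were Ift20, Ift46 and Ift74. Ift20 counted as lower when library sizes were taken over all listed genes, a setting that gave 5 lower, 3 higher and 2 overlapping.

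The further IFT-B subunits were not called in Kansl1 cKO either, where edgeR called 0 of 13031 genes. Of the 7 tested, 5 had log2 fold changes below 0 and 2 above 0, with a median of -0.73. By edgeR's quasi-likelihood test 4 of the 7 had an unadjusted p under 0.05, against 15.7% of all genes. These were Traf3ip1, Ttc30a1 and Ttc30b, with values below 0, and Ttc26, with a value above 0. Traf3ip1 had 24 and 76 counts in controls and 34 and 17 counts in Kansl1 cKO, and a log2 fold change of -1.37 (SE 0.43, adjusted p = 0.237 by edgeR's quasi-likelihood test). Ttc26 lay higher in both Kansl1 cKO libraries, with a log2 fold change of 0.73 (adjusted p = 0.298 by the same test). In these libraries summed melanocyte markers stood at 428.7 and 472.3 CPM in controls and 911.3 and 1026 CPM in Kansl1 cKO, and summed fibroblast markers at 1748 and 1092 CPM against 926 and 739 CPM. Of the 7 fibroblast markers, 6 had log2 fold changes below 0 and Dcn went the other way. Their median was -1.76, and DESeq2 called 4 of them lower. All 5 hair germ markers and all 5 cycling cell markers had values above 0, and 0 of either list were called. Of 7 macrophage markers, 6 had values above 0 and 1 below 0, and 0 were called. The part of these cells in the members' values was not tested.

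**Figure D3:**
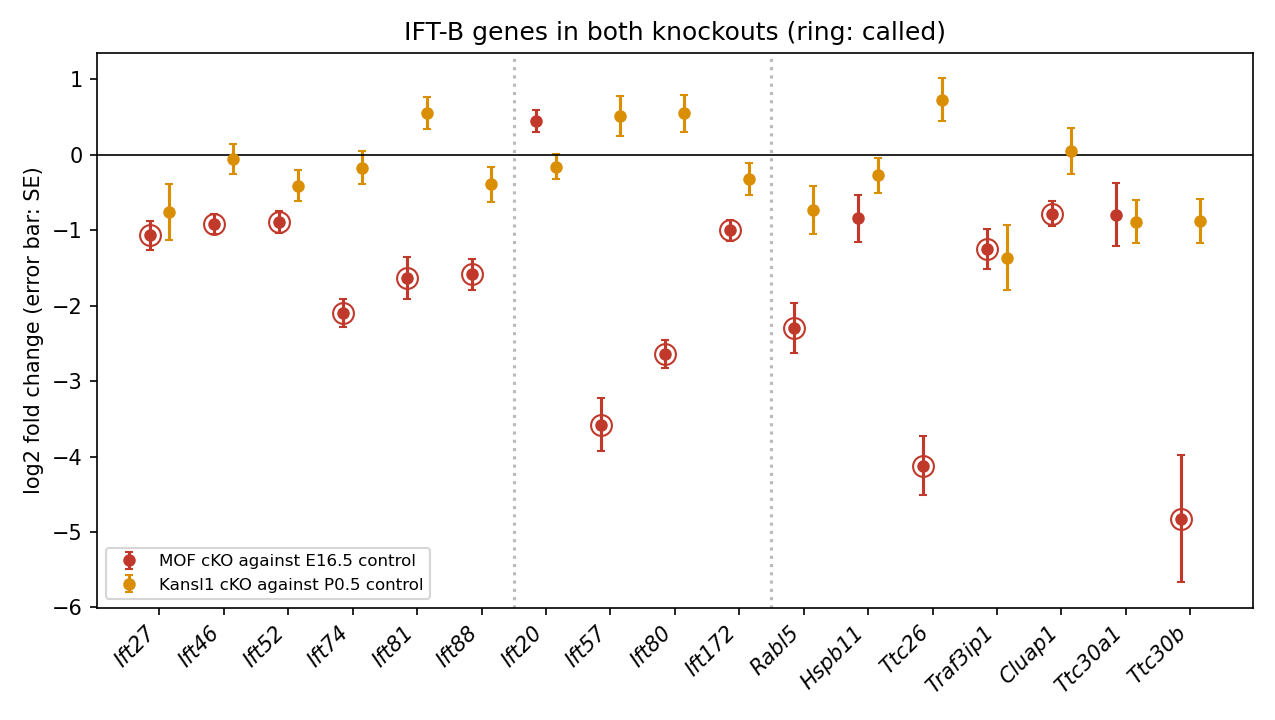
Log2 fold change with its standard error for the 10 members and 7 further IFT-B subunits in MOF cKO against E16.5 control and in Kansl1 cKO against P0.5 control (2 libraries a group), with rings around called genes. Dotted lines part IFT-B1, IFT-B2 and the further subunits. Rings stand at 9 members and 5 further subunits, all for MOF cKO and all below 0.

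Whether the effect of MOF loss differed from that of Kansl1 loss was tested in 1 edgeR quasi-likelihood fit over the 8 libraries, as the difference of the log2 fold changes. The deletions were compared at different stages and in different preparations, and these cannot be told apart from the deleted gene. The difference was called for 4 members, all with the lower value in MOF cKO, where 1.17% of 14565 genes were called lower and 2.92% in either direction. The 4 were Ift57, with a difference of -4.12 (SE 0.418, adjusted p = 0.00137), Ift80 with -3.22 (adjusted p = 0.00092), Ift81 with -2.22 (adjusted p = 0.00863) and Ift74 with -1.96 (adjusted p = 0.00621). The first 3 of these had lower values in MOF cKO and higher values in Kansl1 cKO than in the matching controls. For Ift88, Ift46, Ift172, Ift52 and Ift27 the difference ran from -1.22 to -0.34 and was not called, and for Ift20 it was 0.57. With any 1 library left out, 2 to 3 members were called. Ift57 and Ift80 were called each time, Ift81 never, and Ift74 only without P0.5 control replicate 2 or without Kansl1 cKO replicate 2. With the replicate number as a block, 0 were called, with adjusted p values of 0.016 for Ift80, 0.0168 for Ift57, 0.0276 for Ift81 and 0.0349 for Ift74. With RLE size factors the call of Ift81 was lost (adjusted p = 0.0104).

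Levels of different genes were compared as CPM per kilobase of the principal transcript, with all 8 libraries scaled together. In E16.5 controls Ift20 was the highest at 19.9 ± 0.65 (SD, n = 2), followed by Ift27 at 14.7 ± 1.2, Ift52 at 13.4 ± 0.12, Ift74 at 11.6 ± 0.58, Ift46 at 9.67 ± 0.089, Ift172 at 8.55 ± 0.73, Ift88 at 7.53 ± 0.042, Ift80 at 6.18 ± 0.14, Ift81 at 5.63 ± 1.1 and Ift57 at 3.95 ± 0.16 CPM per kb. In this order Ift80 and Ift81 overlapped, and the other neighbours did not. The length used matters for some members, since by the union of all annotated exons Ift27 was the sixth and Ift80 the last.

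The spread between members widened in MOF cKO. Ift20 stood at 27.1 ± 3 and Ift57 at 0.332 ± 0.11 CPM per kb (SD, n = 2), with Ift52 at 7.23, Ift27 at 7.02, Ift46 at 5.13, Ift172 at 4.28, Ift74 at 2.72, Ift88 at 2.52, Ift81 at 1.80 and Ift80 at 0.994 CPM per kb between them. Ift52 and Ift27 overlapped, as did Ift74 with Ift88 and Ift88 with Ift81. In P0.5 controls Ift20 was again the highest, at 60.9 ± 4.1 CPM per kb, followed by Ift46 at 14.9 ± 3.3 and Ift52 at 13.0 ± 2.8, which overlapped. The order went on with Ift74 at 8.59, Ift27 at 6.02, Ift88 at 4.85, Ift81 at 4.07, Ift172 at 3.11, Ift57 at 2.26 and Ift80 at 1.81 CPM per kb, where Ift27 overlapped Ift88 and Ift88 overlapped Ift81. In Kansl1 cKO the range ran from 55.8 ± 6.3 for Ift20 to 2.55 ± 0.33 CPM per kb for Ift172, with Ift172 overlapping Ift80 at 2.72 CPM per kb.

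**Figure D4:**
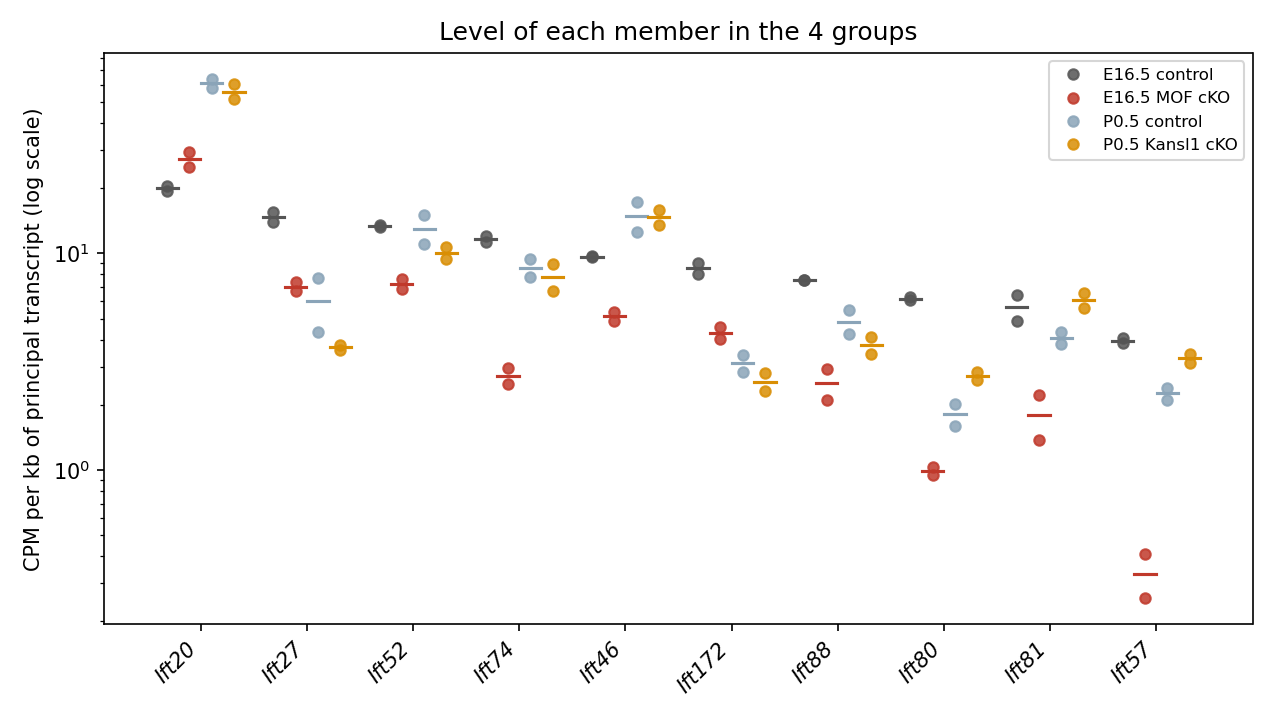
CPM per kilobase of principal transcript, on a log axis, for the 10 members in the 4 groups, with 1 point for each library and a bar at the mean of 2. Ift20 is the highest member in every group, and the MOF cKO points of Ift57 are the lowest on the plot.

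Between the control groups, 4 members were called by edgeR's quasi-likelihood test, against 40.2% of 14565 genes, so the share among the members equals the background. Stage, isolation and sequencing cannot be told apart in this comparison. Ift20 was higher at P0.5, at 66.2 and 72.8 CPM against 22.2 and 23.3 CPM at E16.5 on the common scale, a log2 fold change of 1.61 (SE 0.153, adjusted p = 3.84e-05). Its neighbour Tnfaip1 had a log2 fold change of 0.01 there (adjusted p = 0.971). Ift80 (-1.76, adjusted p = 0.000123), Ift172 (-1.45, adjusted p = 0.000162) and Ift27 (-1.27, adjusted p = 0.00434) were lower at P0.5, all as log2 fold changes, and the call of Ift27 was lost without either E16.5 control (adjusted p = 0.017 and 0.0403) or without P0.5 control replicate 1 (adjusted p = 0.0225), and with the replicate number as a block (adjusted p = 0.0254). At an adjusted p of 0.05, 7 members were called, against 50.4% of all genes. The other 6 members ran from -0.81 for Ift57 to 0.63 for Ift46 and were not called, and the median of the 10 was -0.55, against -0.13 for all genes. Ift46 was called higher by DESeq2 (0.76, adjusted p = 0.000721). It was also called by edgeR's test with RLE size factors (0.76, adjusted p = 0.00412) and with every gene kept (0.73, adjusted p = 0.00139). With library size alone, Ift57 (-1.16) and Ift88 (-0.96) were called lower.

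Across the 8 libraries the members did not share 1 profile. The groups of these libraries differ in depth, stage, preparation and genotype, all of which enter a correlation across them. The Pearson correlation of a member's log2 CPM with the mean standardised profile of the other 9, over the 8 libraries, was 0.98 for Ift74, 0.91 for Ift52 and Ift88, 0.90 for Ift57, 0.87 for Ift80 and 0.80 for Ift81. It was 0.63 for Ift46, 0.26 for Ift27, 0.22 for Ift172 and -0.13 for Ift20. The 5 genes most like the mean of the members, out of 12762 compared, were Stk36, Vps13c, Ripply3, Gpc3 and Rpap2, with r of 0.987 to 0.990. Stk36, a kinase gene named for its fly relative in Hedgehog signalling, had 5.72 and 6.95 CPM in E16.5 controls, 0.232 and 0.351 CPM in MOF cKO, 2.57 and 3.06 CPM in P0.5 controls and 2.50 and 2.07 CPM in Kansl1 cKO. These genes were selected for their likeness, which is a description with no test.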

How the data were processed

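The deposited values were raw counts per gene, made by the authors with HTSeq from paired reads. The methods give HISAT2 and mm10, whereas the submitters' processing notes name TopHat2. In each library 21.1% to 26% of all entries named no gene and were left out. Genes were kept by filterByExpr and scaled by TMM with library sizes over the kept genes, and the comparisons were made with edgeR 4.0.16 in R 4.3.3, each experiment alone, or all 8 libraries for the difference of effects and for the control groups. The limits for a call were 0.01 for the adjusted p and 1.5 for the fold change. Each SE, also drawn as an error bar, was back-calculated from the test. It is the size of the log2 fold change divided by the square root of the test's F statistic. Alternatives were RLE and upper-quartile factors, library size alone, every gene with at least 1 count, DESeq2 1.42.0, a replicate block, each library left out, an adjusted p of 0.05, a test against the fold of 1.5, and 1 fit over 8 libraries. Library sizes over the kept genes replaced sizes over all listed genes after values had been seen, to match earlier processing of these data, and the first setting was added as an alternative. The fits were tested on simulated data. The genes described were the 10 members, the further IFT-B subunits, the targeted genes, neighbours whose starts face a member within 1000 bases or that overlap it, and the 5 genes closest in profile (mean level 1 CPM or more). The members and lists were chosen with earlier results of these data known. Libraries within a group differed by more than sampling noise. Annotation was GENCODE M21, which held 23072 of the 23432 listed symbols.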

Additional observations from a re-analysis of the deposited data

Results flagged for a closer look

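The effect of MOF loss at E16.5 differed from that of Kansl1 loss at P0.5 for 4 members, by the test of the difference itself. The differences of the log2 fold changes were -4.12 for Ift57, -3.22 for Ift80, -2.22 for Ift81 and -1.96 for Ift74. With the replicate number as a block 0 members were called, and with RLE size factors the call of Ift81 was lost. The calls of Ift81 and Ift74 also depended on single libraries, as given above. Stage and preparation differ together with the deleted gene and cannot be told apart from it.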

How the results depend on the processing

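In MOF cKO, 9 members were called lower in every setting that kept all 4 libraries except the test against a fold of 1.5 (4 members) and 1 fit over all 8 libraries (8 members), and 8 to 9 with 1 library left out. The median log2 fold change of the members, -1.33, was -1.39 with upper-quartile factors, -1.63 with library size alone, which moved the median of all genes to -0.32, and -1.37 to -1.17 with 1 library left out. In Kansl1 cKO the count was 0 in every setting. The 4 members with a different effect became 2 to 3 with 1 library left out. The 4 members that differed between the controls became 7 at an adjusted p of 0.05, where 50.4% of all genes were called. At the limit of 0.01, Ift46 was also called by DESeq2, with RLE factors and with every gene kept, and Ift57 and Ift88 with library size alone. The 4 promoters with a half-site became 2 with 250 bases. Directions that turned were all of genes not called: Arcn1 in MOF cKO (-0.15 with library size alone); in Kansl1 cKO Ift46 (-0.26 to 0.16 with 1 library left out), Ift74 (-0.42 to 0.016 likewise) and Cluap1 (-0.00077 with upper-quartile factors, -0.013 with library size alone, -0.32 to 0.57 with 1 library left out); and between the controls Ift52 (0.096 with RLE factors, 0.062 with every gene kept, 0.094 with DESeq2, -0.28 to 0.17 with 1 library left out). The cause was not tested. Library sizes over all listed genes, added after the values were seen, left every count of members called as it was and gave a Kansl1 cKO median of -0.20.

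The labels give the groups the same replicate numbers but do not say what a number stands for. The study's methods describe pairs of samples with littermate controls in each experiment, without saying that a shared number marks a litter. Deviations of same-numbered libraries correlated at 0.206 at E16.5 and -0.202 at P0.5. With 2 libraries a group this cannot decide whether the numbers mark pairs, and the main fits used no block. With the replicate number as a block, 9 members were called lower in MOF cKO, 0 in Kansl1 cKO, 0 for the difference of effects, in place of 4, and 3 between the controls, in place of 4, where Ift27 was lost.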
